A study of Mus musculus with 2 samples.

Results

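The genes described here are 10 that neurons of most kinds switch on as they differentiate: Tubb3, Dcx, Map2, Stmn2, Nefl, Nefm, Elavl2, Elavl3, Elavl4 and Snap25. They were taken by symbol from the 21853 protein-coding genes of the GENCODE vM21 annotation of the mm10 mouse genome, and all 10 symbols were found. The peaks counted for them were those within 500 bp of any of their transcription start sites (TSSs), called promoter peaks. Distal peaks were those centred over 1 kb from every protein-coding TSS and nearest to one of theirs. By these rules the 10 genes had 31 promoter and 174 distal peaks among the 199653 peaks of replicate 1. In replicate 2 they had 26 promoter and 115 distal peaks among 154324.

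The data are DNase-seq, in which the enzyme DNase I cuts accessible chromatin and the cut ends are sequenced. The tissue was neural tube of healthy B6NCrl mouse embryos at embryonic age 11.5 days, pooled over both sexes, with no mutation or treatment named in the labels. The labels give 1 group of 2 biological replicates, which have a biosample label each and share a donor label, so whether they come from separate pools of embryos is not known. Replicate 2 was run on an additional model of sequencer. With 1 group there was no contrast to test, so each library is described by itself and then set beside the other.

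A neuron that leaves the cell cycle builds an axon and dendrites on a cytoskeleton of neuronal tubulin, microtubule-binding proteins and neurofilaments. It also stabilises and splices neuronal transcripts through RNA-binding proteins of the Elavl family, and later assembles the machinery of transmitter release. In dividing progenitors and in cells outside the nervous system many such genes are held silent by REST, a repressor that binds a DNA element called RE1. At 11.5 days the neural tube holds both progenitors and young neurons. In such a mixed tissue, a site that is open in fewer cells and a site that is less open in each cell cannot be told apart.

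Of the 10 genes, 5 had a letter match to the RE1 consensus inside a peak of both libraries: Snap25, Stmn2, Elavl3, Tubb3 and Dcx. Nefm had 2 such matches inside peaks of replicate 1 only. The peaks of replicate 1 that hold them are printed in mm10 coordinates because such matches were more frequent in peaks of these genes than in all peaks, as counted further on. Capitals mark the RE1 match, read on either strand, and Nefm near and Nefm far are the windows nearer to and farther from that gene. In Nefm near the match lies on the - strand.
Snap25 chr2:136714216-136714365, + strand: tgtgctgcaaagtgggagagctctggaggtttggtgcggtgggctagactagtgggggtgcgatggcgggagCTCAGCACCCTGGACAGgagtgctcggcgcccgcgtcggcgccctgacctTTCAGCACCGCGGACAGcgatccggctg
Stmn2 chr3:8508156-8508305, + strand: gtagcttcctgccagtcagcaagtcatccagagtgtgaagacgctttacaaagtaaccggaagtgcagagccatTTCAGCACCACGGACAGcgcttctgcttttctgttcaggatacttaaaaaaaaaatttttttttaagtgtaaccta
Elavl3 chr9:22053796-22053945, + strand: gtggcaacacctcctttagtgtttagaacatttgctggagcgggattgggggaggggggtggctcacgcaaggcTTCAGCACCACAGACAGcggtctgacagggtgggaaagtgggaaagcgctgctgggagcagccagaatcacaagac
Tubb3 chr8:123414356-123414505, + strand: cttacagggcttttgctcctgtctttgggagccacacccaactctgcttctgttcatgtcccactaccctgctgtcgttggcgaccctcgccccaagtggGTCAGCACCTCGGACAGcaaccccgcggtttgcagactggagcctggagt
Dcx chrX:143904796-143904945, + strand: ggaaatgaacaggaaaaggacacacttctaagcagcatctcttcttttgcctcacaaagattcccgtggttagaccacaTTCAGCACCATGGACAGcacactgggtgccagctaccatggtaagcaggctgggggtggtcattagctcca
Nefm near chr14:68163356-68163505, + strand: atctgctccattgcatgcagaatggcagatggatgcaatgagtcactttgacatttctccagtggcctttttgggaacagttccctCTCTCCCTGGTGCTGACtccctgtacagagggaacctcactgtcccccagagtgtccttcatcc
Nefm far chr14:68188456-68188605, + strand: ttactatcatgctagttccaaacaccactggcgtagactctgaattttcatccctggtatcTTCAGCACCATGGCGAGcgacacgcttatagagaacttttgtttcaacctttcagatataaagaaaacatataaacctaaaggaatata

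The printed windows lie at different distances from the start of their genes. That of Snap25 is centred 0.800 kb downstream of the TSS, in an intron, and holds 2 RE1 matches. It lies between the limits of both classes and so is neither a promoter nor a distal peak. The window of Stmn2 lies 1.10 kb and that of Elavl3 1.80 kb upstream, both outside the annotated gene. Those of Tubb3 and Dcx lie 2.80 kb and 28.3 kb downstream, in introns, and those of Nefm lie 38.6 kb and 63.7 kb upstream, in intergenic DNA. None overlapped an annotated UTR.

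Nefm, Elavl2 and Map2 were the 3 genes with the most distal peaks. The strongest distal peak found in both libraries is printed for Elavl2 and Map2. These windows hold no RE1 match, and so carry no capitals.
Elavl2 chr4:91374956-91375105, + strand: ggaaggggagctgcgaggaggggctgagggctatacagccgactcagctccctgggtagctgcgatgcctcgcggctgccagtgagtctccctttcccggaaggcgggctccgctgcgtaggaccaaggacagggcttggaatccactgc
Map2 chr1:66195336-66195485, + strand: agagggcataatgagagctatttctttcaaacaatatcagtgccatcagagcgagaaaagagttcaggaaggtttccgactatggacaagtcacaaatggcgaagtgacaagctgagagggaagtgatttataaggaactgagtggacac

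**Figure D1:**
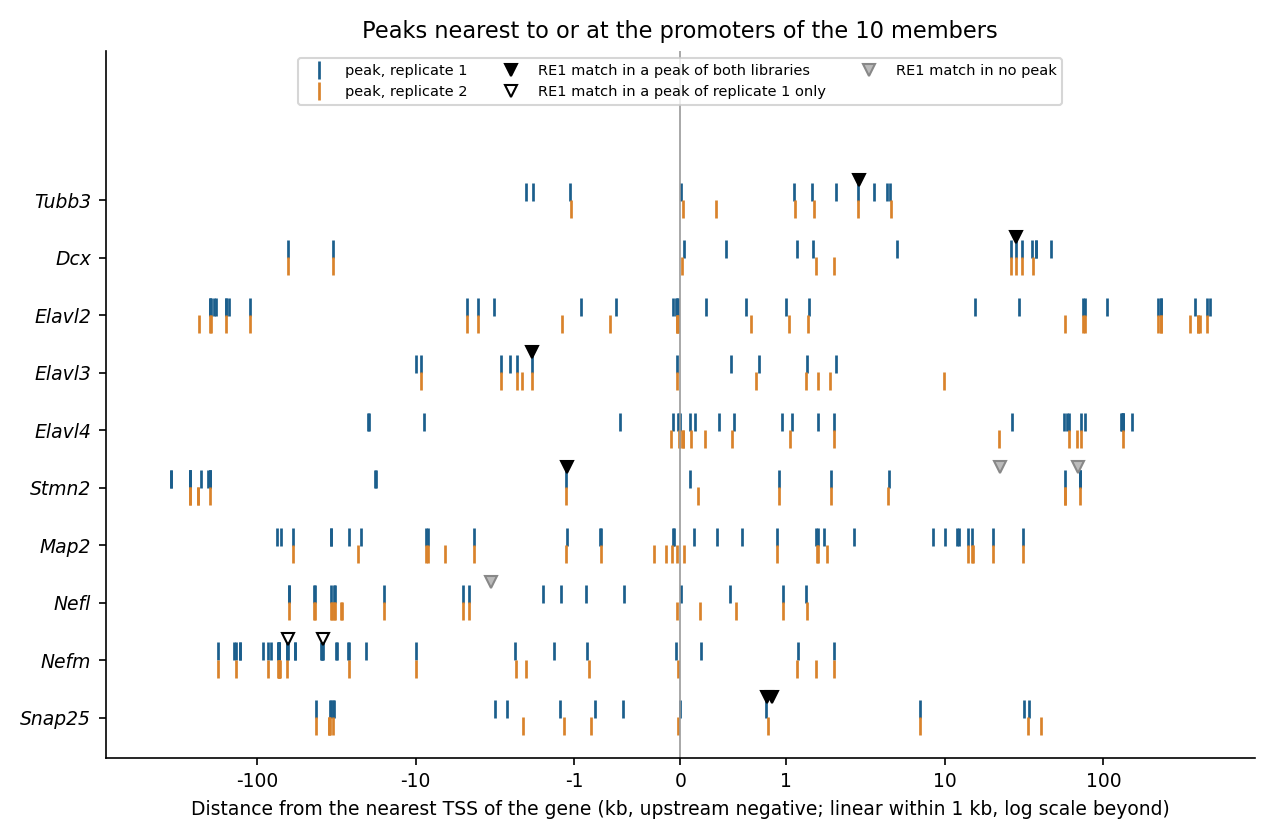
Peaks around the 10 genes by distance in kb from the nearest TSS of the gene, linear within 1 kb and on a log scale beyond, with upstream negative. Blue ticks are peaks of replicate 1 and orange ticks peaks of replicate 2, and triangles mark RE1 matches. Filled black triangles, for matches in a peak of both libraries, stand at Tubb3, Dcx, Elavl3, Stmn2 and Snap25.

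Every one of the 10 promoters was open in both libraries. The share of all coding genes with a promoter peak was 68.5% in replicate 1, 67.7% in replicate 2 and 66.5% in both. All 10 also had a promoter hotspot, a broader accessible region with a −log10 q-value deposited by the authors, in both libraries, against 68.9% of all coding genes in replicate 1 and 68.1% in replicate 2. In replicate 1 the hotspot reached the top −log10 q-value of 100 at all 10 genes, and in replicate 2 at 9 of 10. Among all coding genes, a promoter hotspot at that top value was found for 64.7% (replicate 1) and 62.5% (replicate 2).

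How strongly each promoter peak ranked was read as a percentile, the share of peaks in the same list with a score no higher. The best promoter peaks of the 10 genes had a median percentile of 96.1 in replicate 1 and 94.6 in replicate 2. Over all genes with a promoter peak the medians were 95.8 and 94.8. The 10 genes as a set thus lay at the level of open promoters in general, and the spread within them was set by 2 genes. Dcx ranked lowest in both libraries and Stmn2 second lowest, while the other 8 lay between 94.7 and 98.0 in replicate 1 and between 93.4 and 98.2 in replicate 2. Over the 10 genes the percentiles of the 2 libraries had a Spearman rho of 0.881, given as a description of points that share their libraries.

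The promoter hotspots of these genes were mostly wider than the median over all genes, with the widest over all start sites of a gene counted. The widest at each promoter had a median length of 2930 bp in replicate 1, against 1568 bp over all genes with a promoter hotspot, and 9 of 10 genes were above that median. In replicate 2 the medians were 1546 bp for the 10 genes and 1166 bp for all genes, with 7 of 10 above. The lengths ordered the genes less alike in the 2 libraries, with a Spearman rho of 0.345 over the 10 genes.

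**Figure D2:**
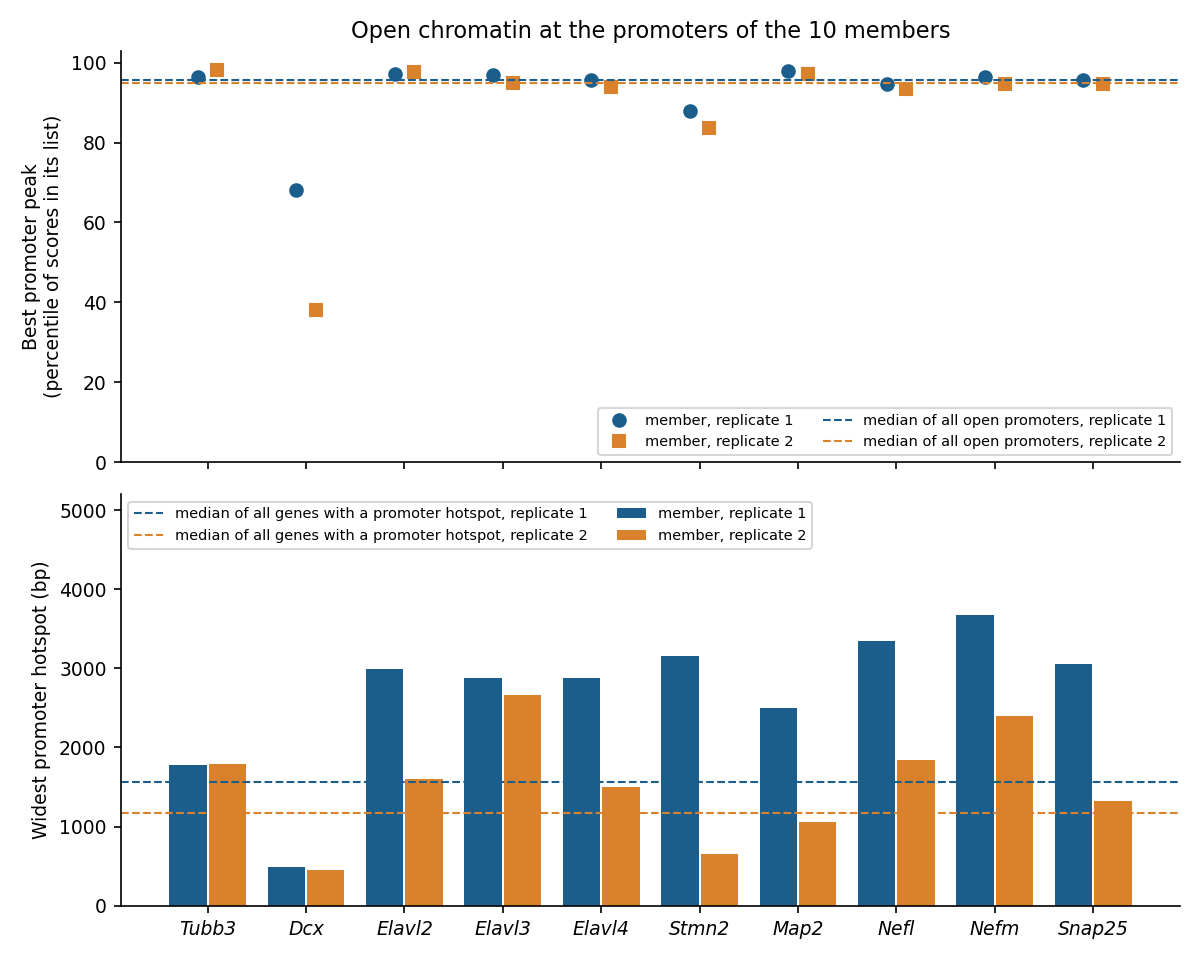
Upper panel, percentile of the best promoter peak among the scores of its own list for each gene and library, with dashed lines at the medians of all open promoters. Lower panel, length in bp of the widest promoter hotspot, with dashed lines at the medians of all genes with one. Dcx lies lowest in both panels, and Stmn2 is second lowest above.

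Among the cytoskeletal genes, Tubb3 encodes the beta-tubulin isotype used as the classical mark of young neurons (ENSMUSG00000062380, chr8:123411424-123422015, + strand). Its best promoter peak stood at percentile 96.4 in replicate 1 and 98.2 in replicate 2, and was centred within 26 bp of the TSS in both. Tubb3 had the smallest territory of the 10, the DNA for which no other coding gene has a closer TSS, at 8.29 kb between Mc1r and Def8. In it lay 10 distal peaks in replicate 1 and 5 in replicate 2, so that this short stretch was the most densely opened of the 10, with 1206 and 603 distal peaks per Mb. All 5 peaks of replicate 2 overlapped a peak of replicate 1. Of these shared peaks, 4 lay in introns of Tubb3, among them the RE1 window at 2.80 kb, which ranked at percentile 71.0 in replicate 1 and 67.5 in replicate 2. The strongest, 1.10 kb downstream, stood at percentiles 93.8 and 87.0. The remaining one lay 1.10 kb upstream, over an exon of Mc1r. Hotspots covered 34.0% of the gene body of Tubb3 in replicate 1 and 22.1% in replicate 2, against 4.18% and 2.86% over the bodies of all coding genes. That body is short, at 10.6 kb. The only shorter one of the 10, that of Nefl at 5.23 kb, was covered to 29.8% and 29.4%.

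Dcx encodes doublecortin, a microtubule-binding protein of migrating neurons (ENSMUSG00000031285, chrX:143855842-143933311, - strand). Its promoter was the weakest of the 10: the best peak stood at percentile 68.2 in replicate 1 and 38.2 in replicate 2. Of all open promoters, 8.70% ranked lower in replicate 1 and 2.81% in replicate 2. The promoter hotspot was also the narrowest, at 485 bp in replicate 1 and 446 bp in replicate 2, and in replicate 2 its −log10 q-value was 4.54. Its strongest distal peaks ranked above its promoter in both libraries. The strongest shared one, 26.3 kb downstream of the TSS in an intron, stood at percentile 89.4 in replicate 1 and 76.1 in replicate 2. Beside it lay the RE1 window at 28.3 kb, at percentiles 58.1 and 53.5, and a further shared peak at 30.6 kb, at percentiles 80.6 and 51.7. Dcx had 12 distal peaks in replicate 1 and 8 in replicate 2, and 6 in each overlapped a peak of the other library.

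Map2 encodes a microtubule-associated protein that marks dendrites (ENSMUSG00000015222, chr1:66175273-66442583, + strand). Its first promoter was the highest ranked of the 10 in replicate 1, at percentile 98.0, and stood at 97.1 in replicate 2. The gene had 23 distal peaks in replicate 1 and 15 in replicate 2, mostly in its own introns, with 15 and 12 there. None of them reached the top 10% of scores in either library, and the same held at Dcx, Elavl2, Stmn2 and Nefl. Of all distal peaks, 3.80% reached it in replicate 1 and 2.68% in replicate 2. The strongest shared distal peak of Map2 was the printed window 20.1 kb downstream of a TSS, at percentile 74.2 in replicate 1 and 58.3 in replicate 2.

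Stmn2 encodes stathmin-2, which destabilises microtubules in growing axons (ENSMUSG00000027500, chr3:8509360-8561606, + strand). Its promoter peak stood at percentile 87.9 in replicate 1 and 83.6 in replicate 2, below those of 8 of the other genes in both. The hotspot at this promoter was 3151 bp long in replicate 1 and 650 bp in replicate 2, the largest difference between the libraries among the 10. The RE1 window 1.10 kb upstream stood at percentiles 72.9 and 75.4. Stmn2 had 22 distal peaks in replicate 1 and 11 in replicate 2, and 8 in each were shared. The shared peaks fell into 3 places: around the promoter from 1.10 kb upstream to 4.50 kb downstream, 57.7 and 71.7 kb downstream, and 198 to 264 kb upstream. The strongest, 1.90 kb downstream in an intron, stood at percentiles 85.3 and 80.7. In replicate 1 it lay in a hotspot of 3151 bp, the length of that at the promoter. Its other 2 RE1 matches, 22.4 kb and 69.1 kb downstream, lay in no peak or hotspot of either library.

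Nefl and Nefm encode the light and medium subunits of neurofilaments, the intermediate filaments of axons, and lie side by side on chromosome 14. Nefl (ENSMUSG00000022055, chr14:68083863-68089095) is on the + strand and Nefm (ENSMUSG00000022054, chr14:68082590-68124846) on the - strand, with 41.0 kb between their TSSs, and the annotated record of Nefm runs on past Nefl. The promoter of Nefl stood at percentile 94.7 in replicate 1 and 93.4 in replicate 2, and that of Nefm at 96.4 and 94.6. Both promoters had wide hotspots, 3341 bp and 1847 bp at Nefl and 3679 bp and 2395 bp at Nefm in replicates 1 and 2. The DNA between the TSSs held 6 peaks in replicate 1 and 7 in replicate 2, of which 3 and 4 were distal. The pair had 45 and 29 distal peaks in all, so most lay on the outer sides. Nefl had 13 distal peaks in each library, of which 10 in each were shared, and 9 of those in replicate 1 lay 4.60 to 63.0 kb upstream of its TSS. The strongest of them, 32.2 kb upstream, stood at percentiles 89.7 and 86.0. Nefm had 32 distal peaks in replicate 1, the most of the 10 genes, and 16 in replicate 2, of which 30 and 13 were intergenic. When the nearest TSS of any annotated gene was used, Nefm had 6 in each library and Nefl 6 and 4. Elavl4 then had the most, 29 and 17. The strongest shared distal peak of Nefm, 1.20 kb downstream of its TSS in an intron, stood at percentile 97.7 in replicate 1 and 95.9 in replicate 2. It lay in hotspots of 3679 bp and 2395 bp, the lengths of those at the promoter. The RE1 windows of Nefm ranked low, at percentiles 14.5 and 37.7 of replicate 1, and had no peak in replicate 2. Nefl had an RE1 match 3.40 kb upstream that lay in no peak or hotspot of either library.

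Elavl2, Elavl3 and Elavl4 encode the neuronal members of the Elavl family, which bind AU-rich RNA. Elavl2 (ENSMUSG00000008489, chr4:91250763-91400785, - strand) had a territory of 1005 kb, the largest of the 10. Its best promoter peak stood at percentile 97.1 in replicate 1 and 97.6 in replicate 2. It had 25 distal peaks in replicate 1 and 21 in replicate 2, and they were spread far, with a median distance of 157 kb and 196 kb from the nearest TSS. For its territory that was few, 24.9 and 20.9 distal peaks per Mb. The strongest shared one, printed above, was not among the remote ones and lay 1.40 kb downstream of a TSS, in an intron. It stood at percentile 89.0 in replicate 1 and 85.6 in replicate 2. In replicate 1 it lay in a hotspot of 2988 bp, the length of the widest promoter hotspot of the gene.

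Elavl3 (ENSMUSG00000003410, chr9:22015005-22052023, - strand) had few distal peaks, 8 in replicate 1 and 9 in replicate 2, but these lay close to an annotated TSS and ranked high. Their median distance from the nearest TSS of the gene was 2.42 kb in replicate 1 and 2.14 kb in replicate 2. For some of them that TSS was an alternative one 25.6 kb into the gene. It had no peak or hotspot within 500 bp in either library, so these peaks lay farther from the open promoter. The median percentile of the distal peaks was 82.2 and 72.5, against 44.5 and 43.4 over all distal peaks. The strongest, 1.40 kb downstream of the first TSS, stood at percentile 96.6 in replicate 1 and 95.1 in replicate 2, close to the promoter itself at 96.9 and 94.8. It lay in hotspots of 2872 bp and 2669 bp, the same lengths as those at the promoter, and so may not be a separate site. A shared peak 2.90 kb upstream stood at 91.6 and 88.2, and next to it the RE1 window 1.80 kb upstream at 62.7 and 72.5.

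Elavl4 (ENSMUSG00000028546, chr4:110203722-110351909, - strand) had 18 distal peaks in replicate 1 and 7 in replicate 2, with 5 shared in each direction. Its first promoter stood at percentile 95.8 in replicate 1 and 94.0 in replicate 2. Its strongest shared distal peak lay 134 kb downstream of the nearest TSS, beyond the end of the gene, at percentiles 95.4 and 92.0. Among the 10 genes this was the only best distal peak over 100 kb away. Neither Elavl2 nor Elavl4 had an RE1 match nearest to it, and neither did Map2.

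Snap25 encodes a SNARE protein of synaptic vesicle fusion, which acts later in the life of a neuron than the cytoskeletal genes (ENSMUSG00000027273, chr2:136713453-136782428, + strand). Its promoter ranked like those of Elavl4 and Nefm, at percentile 95.8 in replicate 1 and 94.6 in replicate 2, within 22 bp of the TSS. The window with its 2 RE1 matches stood at percentiles 90.7 and 88.2, the highest of the RE1 windows of the 10 genes. It had 11 distal peaks in replicate 1 and 10 in replicate 2. Its strongest shared distal peaks lay together upstream, one at 33.4 kb at percentiles 90.7 and 88.0 and one at 34.7 kb at 89.4 and 89.3.

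Several of these genes have alternative start sites, which were grouped where they lay within 500 bp of each other. The 10 genes had 29 such groups, of which 20 (69.0%) had a peak in replicate 1 and 19 (65.5%) in replicate 2. Over all coding genes 53.3% of groups had a peak in replicate 1 and 52.1% in replicate 2. In both libraries 19 groups were open, and 9 had no peak in either. The 4 genes with more than 1 group differed. At Elavl4 all 6 groups were open in both libraries, the first and a cluster of 5 that starts 59.2 kb into the gene. At Map2 3 of 9 were open: the first, at percentiles 98.0 and 97.1, one 146 kb downstream at 91.0 and 80.7, and one 212 kb downstream at 91.0 and 81.7. The 6 others of Map2 had neither a peak nor a hotspot within 500 bp in either library. One of them, 76.4 kb downstream, had peaks of replicate 1 just outside that window, 756 bp upstream and 588 bp downstream. At Elavl2 4 of 6 groups were open in replicate 1 and 3 in replicate 2, and at Elavl3 1 of 2 in both.

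**Figure D3:**
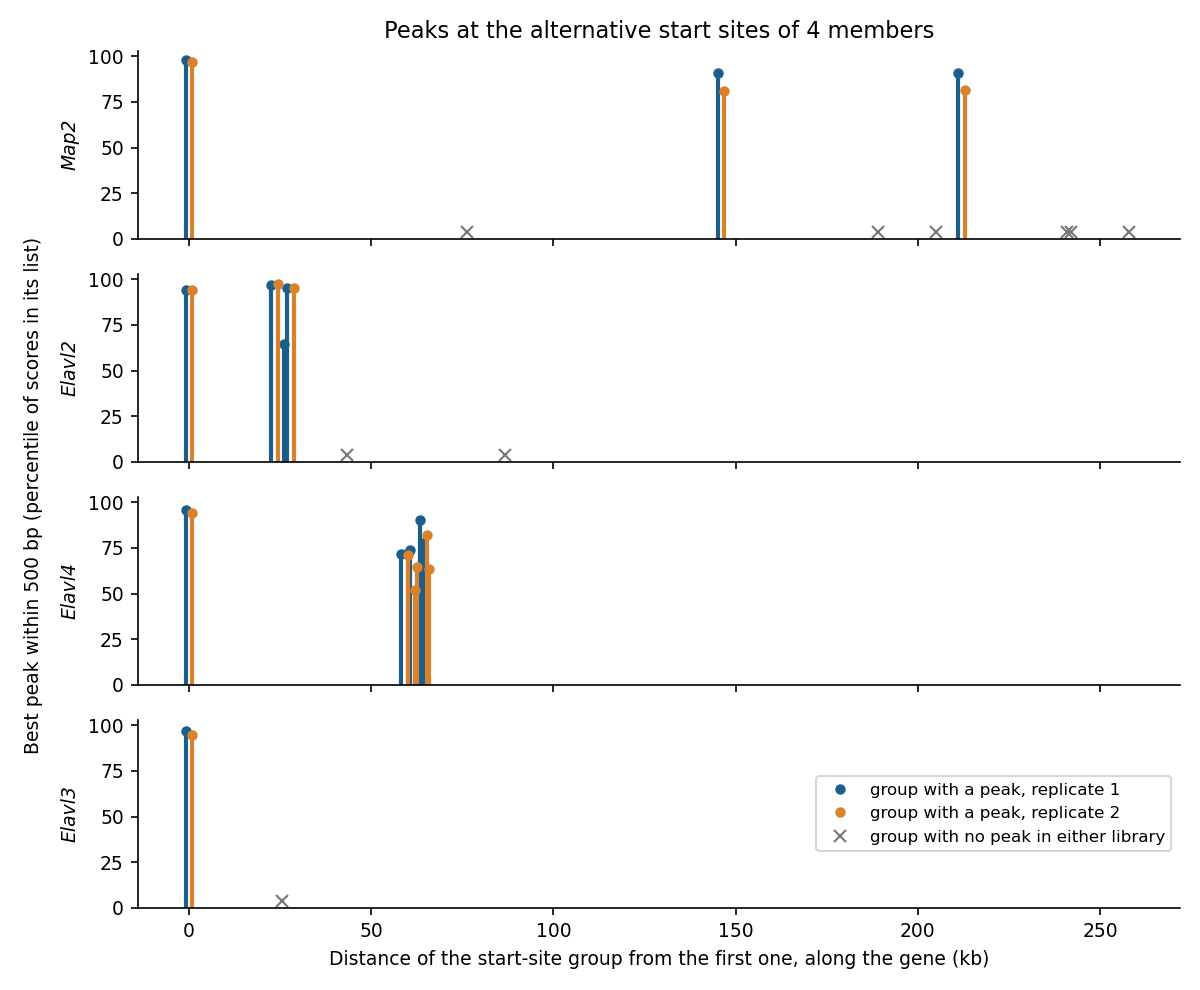
Groups of start sites of Map2, Elavl2, Elavl4 and Elavl3 by distance in kb from the first group, with the percentile of the best peak within 500 bp in each library. Crosses mark groups with no peak in either library, which number 6 at Map2, 2 at Elavl2 and 1 at Elavl3, while Elavl4 has none.

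All 10 genes had distal peaks in both libraries, as did 73.7% of all coding genes in replicate 1 and 69.8% in replicate 2. The numbers ran from 8 at Elavl3 to 32 at Nefm in replicate 1, with a median of 15.5, and from 5 at Tubb3 to 21 at Elavl2 in replicate 2, with a median of 10.5. The medians over all coding genes were 3 and 2, and each of the 10 was above them. As assigned to the nearest coding TSS, long territories went with more distal peaks, with a Spearman rho over the 10 genes of 0.806 in replicate 1 and 0.612 in replicate 2. Per Mb of territory the 10 genes together had 60.2 distal peaks in replicate 1, against 59.9 over all coding genes, and 39.8 in replicate 2, against 44.3. The ratios were 1.01 and 0.899, so the pooled numbers per length were close to those of the genome as a whole. One gene weighed on this: without Elavl2, which holds 1005 kb of the 2.89 Mb, the ratios were 1.32 and 1.13. Leaving out any other gene gave 0.890 to 1.07 in replicate 1 and 0.825 to 0.994 in replicate 2. With distal peaks taken from over 5 kb away the ratios of all 10 were 0.874 and 0.721. Taken gene by gene, the median of the 10 was 73.9 distal peaks per Mb in replicate 1, against 53.3 over all coding genes with a territory. In replicate 2 it was 52.8, against 35.3. Above the median of all genes lay 8 of the 10 in replicate 1 and 7 in replicate 2.

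**Figure D4:**
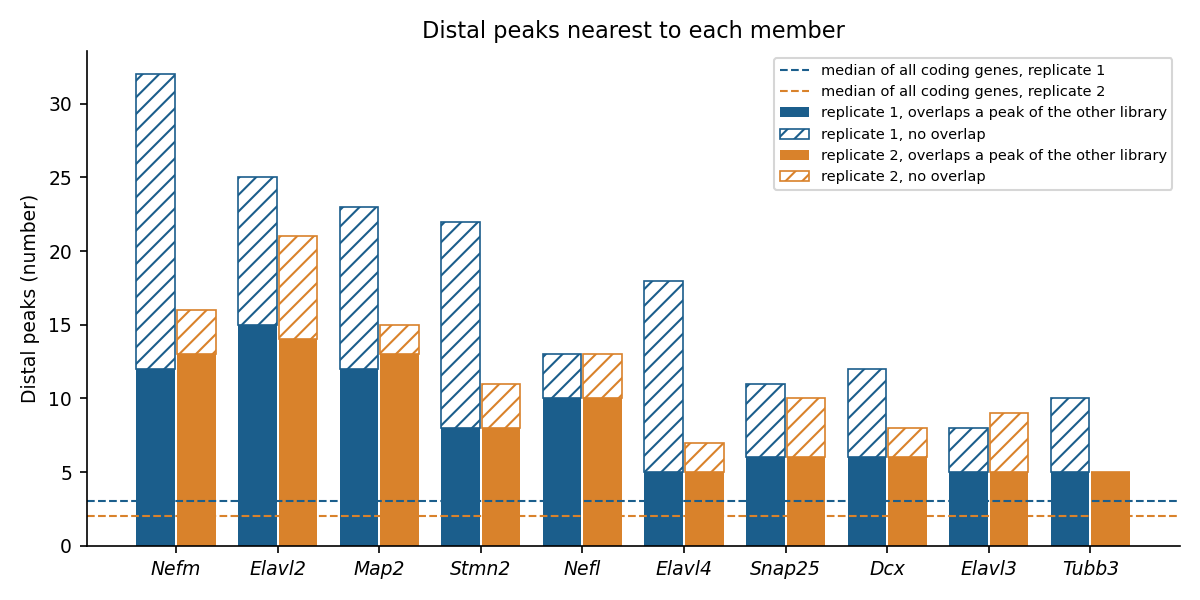
Number of distal peaks nearest to each gene in replicate 1 (blue) and replicate 2 (orange). Filled parts overlap a peak of the other library, hatched parts do not, and dashed lines are the medians over all coding genes, 3 and 2. Nefm has the most in replicate 1, 32, and all 5 distal peaks of Tubb3 in replicate 2 are shared.

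Of the distal peaks of the 10 genes, 48.3% in replicate 1 overlapped a peak of replicate 2, and 73.9% in replicate 2 overlapped one of replicate 1. Over all distal peaks the shares were 48.1% and 66.4%. The mean of both directions was 61.1% ± 18.1 for the 10 genes and 57.3% ± 12.9 for all coding genes (SD of the 2 directions). Sharing varied between the genes in replicate 1, where it was 76.9% at Nefl, 62.5% at Elavl3 and 60.0% at Elavl2, but 27.8% at Elavl4 and 36.4% at Stmn2. Few distal peaks reached the top 10% of scores in their library: 8 of 174 (4.60%) in replicate 1 and 3 of 115 (2.61%) in replicate 2, against 3.80% and 2.68% of all distal peaks. By place, 60 distal peaks of replicate 1 lay in introns of the genes themselves, 5 in their exons, 4 in exons of other genes and 105 between genes. In replicate 2 these numbers were 46, 6, 1 and 62.

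The promoter peaks differed in base composition. The best promoter peak of Dcx held 50% G and C bases and 1 CpG in replicate 1, and 48.0% and 1 CpG in replicate 2. That of Stmn2 held 51.3% with 3 CpG, and 57.3% with 7. The medians over all genes with a promoter peak were 66.7% with 13 CpG in replicate 1 and 67.3% with 14 CpG in replicate 2. The 2 genes with the lowest-ranked promoters thus also had the lowest G and C share among the 10 in both libraries. Next came Snap25, with 57.3% and 60.0%, and Elavl2, with 60.7% in both, whose promoter ranked second of the 10. Beyond Dcx and Stmn2 the order by G and C share was thus not that of the ranks. At the other end stood Map2, with 80.7% and 81.3%, and Elavl4, with 76.7% in both. Whether base composition bears on rank was not tested.

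Matches to the RE1 consensus were counted in all peaks. They lay in 6 of the 174 distal peaks of the 10 genes in replicate 1 (3.45%) and in 4 of 115 in replicate 2 (3.48%), against 0.246% and 0.293% of all distal peaks. None of the promoter peaks of the 10 genes held one, and 0.177% and 0.185% of all promoter peaks did. The genome held 2163 matches in all, of which 23.0% lay in a peak of replicate 1 and 20.8% in one of replicate 2. The 10 genes were the nearest to 11 of them. Of these, 8 lay in a peak of replicate 1 and 6 in one of replicate 2. Among all matches within 2 kb of a coding TSS, 40.7% lay in a peak of replicate 1 and 40.3% in one of replicate 2. The matches in shared peaks of Snap25, Stmn2 and Elavl3 lay within that distance. With or without a peak, 7 of the 10 genes had a match nearest to them, against 8.28% of all coding genes. Counted by gene, 6 of 10 had a match in a peak nearest to them in replicate 1, where 2.00% of all coding genes did, and 5 of 10 in replicate 2, where 1.84% did. In the RE1 windows shared by both libraries the match lay 5 to 33 bp from the centre of the 150 bp peak, except for the second match of Snap25 at 55 and 35 bp. A match shows the letters and not that REST was bound.

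For comparison, 36 other genes used by most neurons were taken from a list, such as those for further tubulins, synaptic proteins and adhesion molecules. All 36 had a promoter peak in both libraries, with a median hotspot length of 2118 bp in replicate 1 and 1351 bp in replicate 2. Of them, 9 had an RE1 match in a peak of replicate 1 and 8 in one of replicate 2, the 8 being Chga, L1cam, Map1b, Nefh, Nova2, Rbfox3, Rtn1 and Syt4 in both. Nefh encodes the heavy neurofilament subunit, which joins Nefl and Nefm in the filament. Their median number of distal peaks was 9 in replicate 1 and 7 in replicate 2, below the 15.5 and 10.5 of the 10 genes, but per Mb of territory they had 90.2 and 66.9, above the 60.2 and 39.8 of the 10. By the mean of both libraries the most stood at Myt1l, with 76 and 72, Rbfox3, with 82 and 62, and Ncam1, with 61 and 52. No gene among the 10 reached those numbers.

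Relatives of the same families that most cells use, such as Elavl1, Snap23, Stmn1 and Tubb5, formed a list of 10. All 10 promoters were open in both libraries, at a median percentile of 98.5 in replicate 1 and 97.8 in replicate 2, against 96.1 and 94.6 in the neuronal genes first described. The median hotspot length of the relatives was 2060 bp in replicate 1 and 1503 bp in replicate 2, against 2930 and 1546 bp. The median number of distal peaks of the relatives was 5.50 in replicate 1 and 6.50 in replicate 2, against 15.5 and 10.5. Per Mb of territory the order was the opposite, with 102 and 108 distal peaks in the relatives, which have short territories of 0.520 Mb in all, against 60.2 and 39.8. By the mean of both libraries the most stood at Stmn1, with 10 and 14, Map4, with 11 and 8, and at 3 genes with a mean of 8 that share the next place, Tubb5, Vim and Lmna. None of the 10 relatives had an RE1 match in a peak of either library.

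Genes of neural progenitors formed another list of 12. Their promoters were all open in both libraries, with a median hotspot length of 4230 bp in replicate 1 and 2354 bp in replicate 2. Their median number of distal peaks was 26 in replicate 1 and 18.5 in replicate 2, above the 15.5 and 10.5 of the 10 neuronal genes. Per Mb of territory they had 198 and 155 distal peaks, against 60.2 and 39.8. By the mean of both libraries the most stood at Sox2, with 159 and 111, Hes1, with 71 and 65, and Pax6, with 59 and 64. An RE1 match in a peak was found at none of the 12 in replicate 1 and at 1 in replicate 2.

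**Figure D5:**
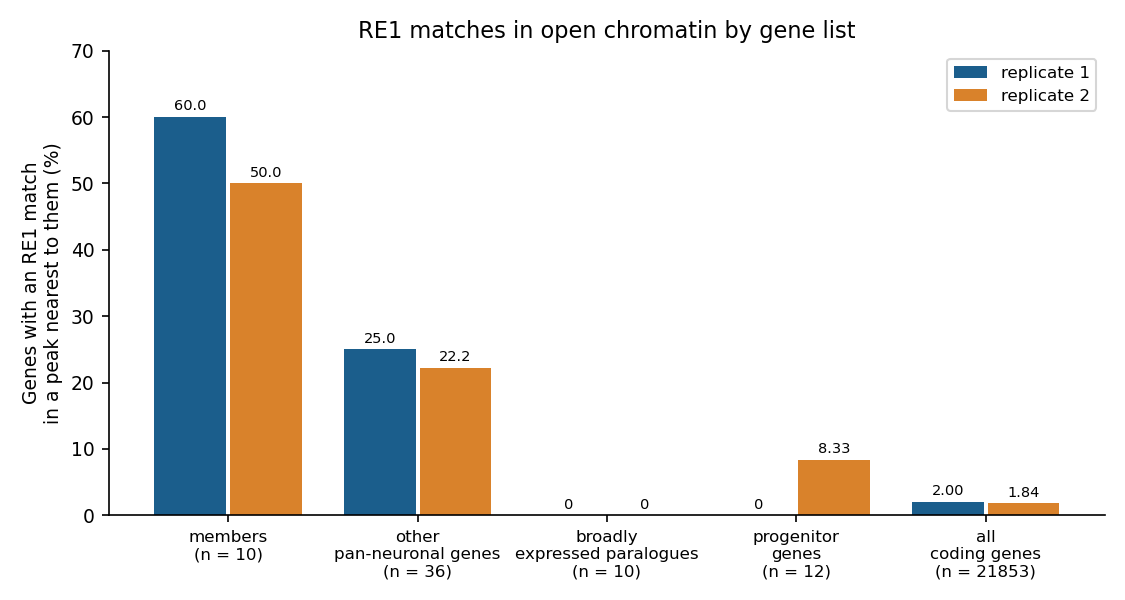
Share of genes, in percent, with an RE1 match in a peak nearest to them, for the 10 genes (members), the 3 comparison lists and all coding genes, in replicate 1 (blue) and replicate 2 (orange). The 10 genes stand at 60.0% and 50%, the other pan-neuronal genes at 25.0% and 22.2%, and all coding genes at 2.00% and 1.84%.

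Shorter motifs were searched on both strands in the same peaks, and not all motifs searched are named here. Where peaks of the same library overlapped each other, as at Elavl2 and Stmn2, a match could be counted more than once. The E-box CAGATG, a core read by proneural bHLH factors, was in 41 of the 174 distal peaks in replicate 1 (23.6%) and in 28 of 115 in replicate 2 (24.3%), against 17.1% and 16.6% of all distal peaks. It was found at all 10 genes in replicate 1 and at 9 in replicate 2, where Nefm had none. Other E-boxes did not show this in both libraries: CAGCTG was in 15.5% and 19.1% of the distal peaks of the 10 genes, against 15.7% and 17.1% of all, and CAGGTG in 10.9% and 11.3%, against 9.92% and 12%. The consensus of CTCF, a protein that anchors chromatin loops, was in 2 distal peaks in replicate 1, both of Stmn2, and in 0 in replicate 2, against 4.01% and 4.59% of all distal peaks. At the promoters, TATAAA was in peaks of Elavl3, Nefl and Nefm in both libraries and of Elavl4 in replicate 2. That made 3 of 31 promoter peaks in replicate 1 and 4 of 26 in replicate 2, against 2.31% and 2.04% of all promoter peaks. Snap25 alone had the cyclic AMP response element TGACGTCA in a promoter peak, in both libraries, as did 1.65% and 1.73% of all promoter peaks. The GC box GGGCGG was in promoter peaks of 8 of the 10 genes in replicate 1, all but Dcx and Stmn2, and of 7 in replicate 2, where Nefl had none either. Counted by peak, it was in 12 of 31 (38.7%) and 8 of 26 (30.8%), against 42.3% and 45.2% of all promoter peaks. The CTCF consensus can hold CAGATG or CAGGTG within it. The RE1 consensus can hold CAGGTG, read on the other strand, so these counts can share sites.

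The tissue label was checked on markers. All 8 neural tube markers (Sox1, Sox2, Sox3, Pax6, Nes, Olig2, Nkx6-1 and Pax3) had a promoter peak in both libraries. Of markers of other tissues, 2 of 5 endothelial genes (Pecam1 and Kdr, with Emcn and Tek in 1 library each) and 0 of 5 myeloid genes did. Of muscle genes Myod1 did in both libraries and Myog and Myf5 in 1 each, and of 3 epidermal genes Krt5 did in replicate 2 only. The part of such cells in the peaks of the 10 genes was not tested.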

How the data were processed

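DNase-seq of 1 group of 2 libraries was used. Per the file headers, the authors called peaks and hotspots in each library separately on mm10. Names of the aligner and peak caller, with versions and thresholds, were not given in the sources used here. The deposited peaks are 150 bp windows with a score of at most 150 whose meaning is not given. It served only to rank peaks within a list. The hotspots carry a −log10 q-value deposited by the authors. Depth is unknown, since the files hold no read counts.

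Repeated rows were removed from the peak lists, 45 in replicate 1 and 22 in replicate 2. The annotation, GENCODE vM21, gave 54361 TSSs of protein-coding transcripts. Overlap meant 1 bp or more. Promoter peaks overlapped 500 bp either side of a TSS. Each distal peak went to the nearest TSS. Sequences were read from the RefSeq copy of the GRCm38 genome, which is mm10, and motifs matched exactly on both strands. No test was run, as there is no contrast between groups. The genes, the lists and the motifs were chosen with earlier results of these data known. The text names all 10 genes, each one's best distal peak found in both libraries and, in each comparison list, the 3 genes with the most distal peaks and those with a promoter peak in neither library or in 1. Markers of cell types are given as counts, with names only where the promoter was open. Some items that these rules or lists name are not reported here. Counting was checked on simulated regions with Python 3.11.15 and NumPy 2.4.6, and figures were drawn with Matplotlib 3.10.9. Alternatives included other windows, distances and score limits, and each library alone.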

Additional observations from a re-analysis of the deposited data

How the results depend on the processing

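Of the 10 genes, the number with a promoter peak in both libraries was 10 under windows of 200 and 1000 bp, under the 5′ end of the gene record alone, with equal numbers of peaks and with hotspots, and 9 with the top 50% of each list by score. Promoter hotspots at the top −log10 q-value were found at 9 in both libraries. Either library alone gave 10 for promoter peaks and 10 for promoter hotspots of any −log10 q-value. The number of distal peaks moved most. In replicate 1 it was 104 within 50 kb, 82 in the top 50% and 110 when the nearest TSS of any annotated gene was used, against 174. In replicate 2 it was 75 within 50 kb and 46 in the top 50%, against 115. The ratio of distal peaks per Mb over all genes was 0.874 in replicate 1 and 0.721 in replicate 2 beyond 5 kb, and 1.09 in replicate 1 in the top 50%. For single genes, 58 of 100 alternative counts stayed within 1.5 times, and 42 did not. The mean share of distal peaks found in the other library was 54.4 to 74.0% under the alternatives, against 61.1%. Each direction by itself gave 48.3% and 73.9%, the values its SD is made of. No library could be left out, since overlap needs both. Genes with an RE1 match in a peak of both libraries numbered 5 again in hotspots, within 50 kb and in the top 50%, and were 5 and 6 in single libraries, alternatives chosen after seeing the data. No paired analysis was possible because there is 1 group. Peak lists without counts limit every value to presence and rank.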

Other observations

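Peaks between 500 bp and 1 kb of a TSS belong to neither class above. The 10 genes had 15 of them in replicate 1 and 10 in replicate 2, and Snap25, Map2, Elavl2, Elavl3, Nefl, Nefm and Stmn2 had at least 1 in both. Those of Snap25 lay at 802 and 842 bp upstream and at 812 and 832 bp downstream in replicates 1 and 2, the downstream one being its RE1 window.

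Hotspot cover of the gene bodies varied. Hotspots took up 3.98% of the gene body of Map2 in replicate 1 and 1.93% in replicate 2, and 3.28% and 2.64% of that of Snap25, against 4.18% and 2.86% over the bodies of all coding genes. In Elavl2 they took up 5.83% and 4.04%, in Elavl4 6.17% and 3.54%, and in Dcx 5.13% and 2.58%. In the short gene Nefl they took up 29.8% and 29.4%.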
